A study of Drosophila melanogaster with 12 samples.

Results

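The 7 genes described here, bam, bgcn, tut, mei-P26, nos, pum and brat, control whether a germline stem cell of the Drosophila ovary stays a stem cell or differentiates. They were chosen by name, and all 8 probe sets that the platform's gene table gives to one of them alone were used, of 18952 probe sets and 11983 genes in all. The table lists nos as nanos (locus CG5637), which is not the nitric oxide synthase gene Nos. Of the 7 genes, 6 lay over a log2 signal of 5 on at least 3 arrays and entered the test with 6163 genes in all. The exception was bgcn.

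In the niche at the tip of each germarium, BMP signals from somatic cells keep bam silent in the stem cell. A daughter cell that leaves the niche turns bam on, and Bam with its partner Bgcn then blocks the translation of self-renewal factors, among them nos. Nos and Pum do the opposite and repress mRNAs of differentiation genes in the stem cell, while Brat works with Pum in the differentiating daughter. Most of these proteins act on mRNA translation, so an array, which measures RNA, sees their own transcripts and not their activity.

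Ovaries came from virgin females collected 4 to 6 h after eclosion, and there were 4 genotypes with 3 biological replicates each, about 100 pairs of ovaries a replicate. The su(Hw) mutant called Pb/2 carried su(Hw)[e04061] over su(Hw)[2]. The mutant called A2663/v carried su(Hw)[A2663] and the EPgy2 P element in CG6499. Its second allele is v in one label and su(Hw)[2] in another. Both mutants had an X chromosome with the y[2], w[67c23], ct[6] and f[1] alleles. The wild type BL15598 carried y[1], w[67c23] and the same EPgy2 insertion, and the other wild type was Canton S, a laboratory strain. The protein these mutants lack, Su(Hw), binds DNA through zinc fingers and is required for female fertility. Ovaries of this age hold egg chambers up to stage 8, per the series' description, and mutant chambers die at stage 9, so the ovaries were taken ahead of that death. Markers of vitellogenic egg chambers differed between genotypes, as given below, so the genotypes need not match in stage.

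The mutants held little su(Hw) RNA, at log2 2.51 to 3.42 on the 6 mutant arrays against 8.78 to 9.30 on the 6 wild-type arrays. Germline was present on every array, since all 9 of the germline marker genes measured (piwi, aub, osk, bcd, grk, orb, AGO3, tud and vls) lay over the floor of log2 5 throughout. Their summed linear signal ran from 26149 to 27385 in Pb/2, 24959 to 26719 in A2663/v, 25130 to 25826 in BL15598 and 24717 to 27131 in Canton S, a sum that osk and orb dominate. By limma 5 of the 9 were higher in the mutants, 1 was lower, and the median log2 change was 0.20. Against BL15598 5 were higher in each mutant. Against Canton S 3 were higher in Pb/2 (median 0.08) and 1 in A2663/v (median 0.07). Of 8 somatic ovary markers, tj, hh, en and slbo lay under the floor on all arrays, bab1, bab2 and zfh1 lay over it on all, and mirr was under it in BL15598 alone. RNA of the whole ovary cannot tell fewer cells of a type from less RNA per cell, and stem cells and their early daughters are a small part of it.

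Markers of other tissues were mixed. Of 6 haemocyte markers, Hml, Sr-CI, eater and He lay under the floor on all arrays, Pxn averaged 7.99 in Pb/2, 8.17 in A2663/v, 4.30 in BL15598 and 6.49 in Canton S, and NimC1 averaged 4.19 in Pb/2, 4.70 in A2663/v, 5.19 in BL15598 and 6.60 in Canton S. Of 4 neuron markers, nSyb and brp lay under the floor on all arrays, nrv3 averaged 11.49 in Pb/2, 11.54 in A2663/v, 6.18 in BL15598 and 7.33 in Canton S, and elav did not pass between mutants and wild types (-0.29, limma adjusted p = 0.0718). Of 8 testis markers all but mia lay under the floor on all arrays, and mia, over it on every array, was at -0.31 (0.0819) between mutants and wild types and at -1.45 (0.000106) in BL15598 minus Canton S. Of 5 muscle markers 1 was higher in the mutants and 0 lower by limma (0 lower at an unadjusted p under 0.05 too), and 3 were lower in BL15598 than in Canton S. Of 4 fat body markers 0 were called by limma between mutants and wild types (2 lower at an unadjusted p under 0.05). The part of these tissues in the members' values was not tested.

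**Figure D1:**
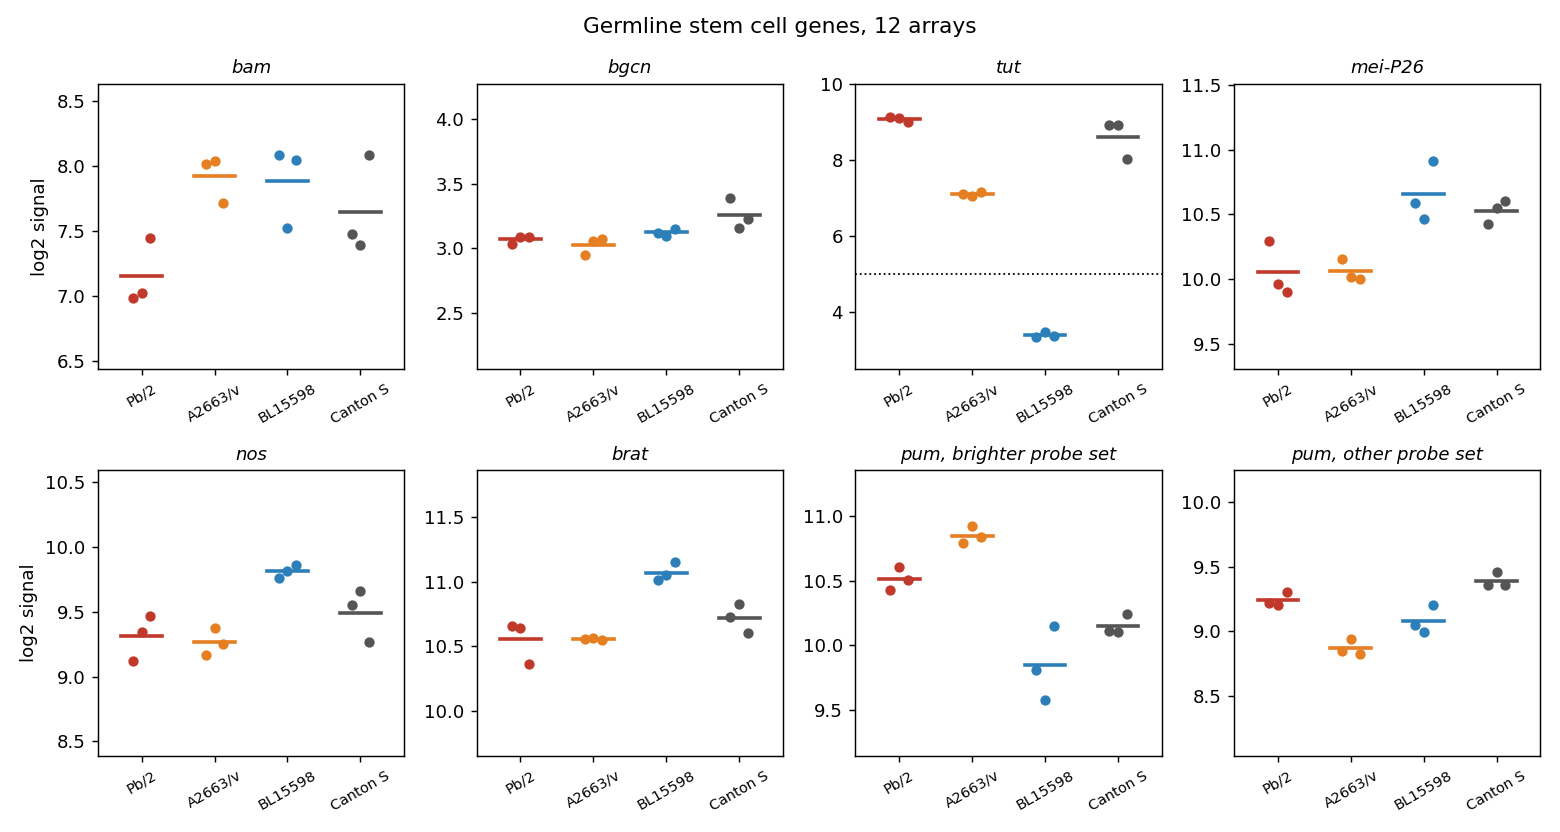
Log2 signal of the 8 probe sets on each of the 12 arrays (points, with a line at the mean of 3 replicates), by genotype. The dotted line marks the floor of log2 5, and axes span 2.2 log2 units except for tut, which lay at 3.35 to 3.47 in BL15598 and at 7.05 or more on the other arrays.

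Apart from tut, 5 members were tested between the mutants and the wild types, and 4 of them differed (limma, Benjamini-Hochberg adjusted p under 0.05). The repressor gene pum was higher in the mutants by its brighter probe set, and mei-P26, nos and brat were lower. Over all 6163 genes the same test called 46.9%, 20.3% higher and 26.6% lower, so the count of 4 must be read against that share. The changes were small: none of the 5 reached 2-fold, which with the same p 5.83% of all genes did. The median log2 change of the 5 was -0.34, beside -0.03 over all tested genes. Of the 5, mei-P26 and pum were called in both mutants against both wild types.

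Each mutant was also set against each wild type. In Pb/2 minus BL15598 all 5 members were called, 1 higher and 4 lower, beside 42.8% of all genes, and in A2663/v minus BL15598 4 were called, 1 higher and 3 lower, beside 40.9%. Against Canton S there were 2 calls in each mutant, 1 higher and 1 lower, beside 28.5% of genes in Pb/2 and 26.9% in A2663/v. Between the wild types, BL15598 minus Canton S, 1 member was called, beside 25.4%. Between the mutants, Pb/2 minus A2663/v, 1 was called, beside 8.03%. The 5 members' median change was -0.51 in each mutant against BL15598, and -0.18 in Pb/2 and -0.16 in A2663/v against Canton S. This median thus moved more with the choice of wild type than with the choice of mutant. The same did not hold for bam (-0.77 between mutants, 0.24 between wild types) or pum (-0.33 and -0.30).

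**Figure D2:**
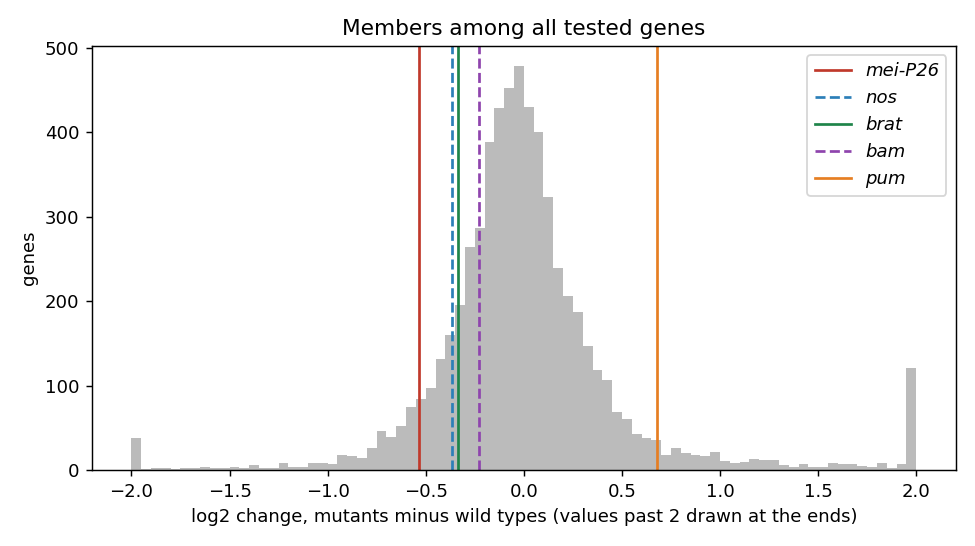
Histogram of the log2 change, mutants minus wild types, over the 6163 tested genes (grey, bins of 0.05), with a line for each of the 5 members tested here. The line of mei-P26 stands at -0.53 and that of pum at 0.68, while nos, brat and bam lie between -0.36 and -0.23, within the bulk of genes.

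Of the differentiation factors, bam (bag of marbles) is the switch gene itself, whose protein makes a cystoblast begin its synchronous divisions. Its log2 signal was 6.99, 7.02 and 7.44 in Pb/2 and 8.02, 8.04 and 7.72 in A2663/v. In the wild types it was 8.09, 7.52 and 8.05 in BL15598 and 7.48, 7.39 and 8.08 in Canton S. Pb/2 thus held the lowest arrays and A2663/v lay among the wild types. The mutants as a pair did not pass against the wild types (log2 change -0.23 ± 0.14, SE; limma adjusted p = 0.206), with a 95% interval of -0.54 to 0.08.

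Between the mutants, bam was lower in Pb/2 than in A2663/v, at -0.77 ± 0.20 on the log2 scale (SE; limma adjusted p = 0.0317). All 3 Pb/2 arrays lay under all 3 A2663/v arrays, a separation that was not counted over all genes. Against BL15598 bam was lower in Pb/2 (-0.73 ± 0.20, limma adjusted p = 0.0107), but against Canton S it did not pass (-0.50 ± 0.20, limma adjusted p = 0.0809; without Pb/2 replicate 3, -0.65 and 0.0435). In A2663/v the log2 change of bam was 0.04 ± 0.20 against BL15598 (limma adjusted p = 0.891) and 0.27 ± 0.20 against Canton S (limma adjusted p = 0.348). The order of means was A2663/v, BL15598, Canton S and Pb/2, and no pair of neighbours in it passed the test.

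Digestive enzyme RNA, a sign of gut in the dissection, differed between arrays of each mutant. The 7 gut markers summed to 998, 2607 and 38.7 in Pb/2 replicates 1 to 3 and to 918, 34.4 and 2117 in A2663/v, against 33.9 to 381 in the wild types. The 2 Pb/2 arrays with a high sum were the 2 lower in bam. In A2663/v the array with a low sum was the highest in bam, at 8.04 beside 8.02 in replicate 1. The wild types went both ways. In BL15598 the array with the highest sum (replicate 2, 381) was lowest in bam, at 7.52. In Canton S the array with the highest sum (replicate 3, 154) was highest in bam, at 8.08. Without the 4 mutant arrays of high gut signal (replicates 1 and 2 of Pb/2, 1 and 3 of A2663/v) the difference of bam between the mutants was -0.60 (limma adjusted p = 0.721), with 1 array left in each mutant. It was also lost without any one of 4 mutant arrays, namely replicate 1 or 2 of either mutant (adjusted p from 0.106 to 0.115), with genes not filtered (0.0922) and with no variance trend (0.0548). Without those 4 arrays bam in Pb/2 minus BL15598 was -0.44 (0.331). The part of gut RNA in the difference was not tested.

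The gene bgcn (benign gonial cell neoplasm) encodes the helicase-related partner of Bam. Its probe set lay at 2.95 to 3.09 in the mutants and 3.10 to 3.39 in the wild types, under the floor on all 12 arrays. At this signal a level cannot be read, and the gap of the 2 ranges says nothing of bgcn RNA.

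The gene tut (tumorous testis) encodes an RNA-binding partner of Bam and Bgcn known from the male germline. It was put forward with its strain difference known, so its levels against BL15598 and against Canton S are a description without a test. Its log2 signal was 9.13, 9.10 and 8.99 in Pb/2 and 7.09, 7.05 and 7.14 in A2663/v. It was 3.35, 3.47 and 3.36 in BL15598, under the floor, and 8.91, 8.91 and 8.02 in Canton S. The 2 wild types thus lay further apart than either mutant from Canton S. With values raised to the floor, tut was at least 12.2-fold lower in BL15598 than in Canton S, at least 16.8-fold higher in Pb/2 than in BL15598 and at least 4.27-fold higher in A2663/v than in BL15598. It was one of 190 genes, 3.08% of those tested, at least 2-fold lower in BL15598 than in Canton S.

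Among the other 3 genotypes tut was graded. It was lower in A2663/v than in Canton S, with a change of -1.52 ± 0.19 log2 units (SE), and higher in Pb/2 than in A2663/v by 1.98 ± 0.19 (limma adjusted p = 2.09e-05). Neither set of arrays overlapped. Between Pb/2 and Canton S the change was 0.46 ± 0.19, and Canton S replicate 3 lay under the other 2 Canton S arrays. Both changes against Canton S are descriptions only. Without the 4 mutant arrays of high gut signal the difference between the mutants was 1.94 (limma adjusted p = 0.0641).

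A mean over mutants minus a mean over wild types therefore says little of tut: its log2 value of 2.08 (1.28 with values raised to the floor) joined a mutant lower than Canton S with a wild type at background. BL15598 and A2663/v carry the same insertion in CG6499 per the labels. The values used here do not give the genotype at tut.

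The genes beside tut that could be measured did not share its low level in BL15598. In the gene order of the RefSeq table for chromosome arm 3L, the 5 nearest genes with a probe set on each side held 3 over the filter. Their log2 differences, BL15598 minus Canton S, were 0.14 for MED24 (limma adjusted p = 0.224), 0.12 for Dhps (0.362) and -0.23 for CG8012 (0.469). The other 7 neighbours lay under the floor in all genotypes, among them eIF4E3 at 3.91 ± 0.23 in Pb/2 and 3.38 ± 0.22 in Canton S (SD, n = 3).

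**Figure D3:**
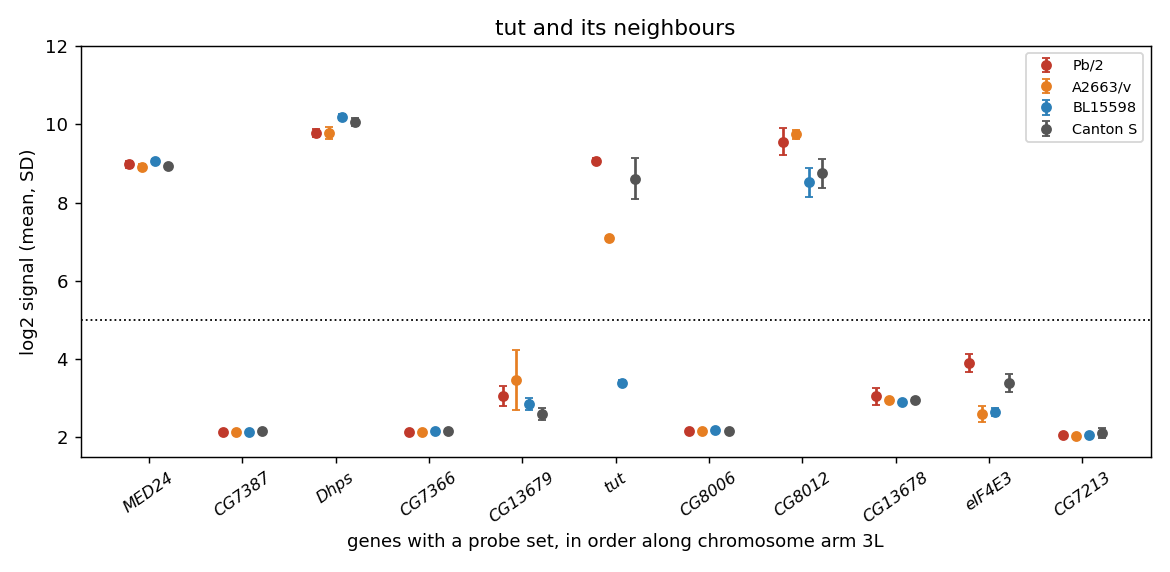
Log2 signal (mean and SD of 3 arrays) of tut and the 5 nearest genes with a probe set on each side, in their order along chromosome arm 3L, by genotype. The dotted line is the floor of log2 5. Among these genes tut alone crosses the floor between genotypes.

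The genes whose pattern over the 12 arrays was most like that of tut were GILT3 (Pearson r = 0.982), mirr (r = 0.981) and CG17470 (r = 0.980), out of 6162 others. These are descriptions over arrays that fall into 4 genotypes. The homeobox gene mirr, which patterns follicle cells and is one of the somatic markers above, also lies on 3L. It stood at 8.11 ± 0.11 in Pb/2, 7.13 ± 0.36 in A2663/v, 4.41 ± 0.11 in BL15598 and 8.40 ± 0.06 in Canton S (SD, n = 3). Its order of genotypes differed from that of tut only in Pb/2 and Canton S, which changed places. The 3 other somatic markers tested were also lower in BL15598 than in Canton S, bab1 at a log2 difference of -0.62 (limma adjusted p = 0.00194), bab2 at -0.64 (0.00877) and zfh1 at -0.59 (0.002), each over the floor on all arrays. The part of somatic cells in the levels of tut was not tested.

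The gene mei-P26 encodes a TRIM-NHL protein that works with Bam, Bgcn and Sxl in the cystoblast and restricts growth and division in the cyst. Its log2 signal was 10.30, 9.96 and 9.90 in Pb/2 and 10.16, 10.02 and 10.003 in A2663/v. In the wild types it was 10.59, 10.46 and 10.91 in BL15598 and 10.43, 10.55 and 10.60 in Canton S. The 6 mutant arrays all lay under the 6 wild-type arrays, as they did for 8.31% of all tested genes. The gene lies on the X chromosome, and both mutants shared a marked X that neither wild type had. The part of that X in the values of mei-P26 was not tested.

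The fall of mei-P26 in the mutants was -0.53 ± 0.09 on the log2 scale (SE; limma adjusted p = 0.000236), a 1.45-fold lower signal. It was -0.60 in Pb/2 minus BL15598 (adjusted p = 0.0015), -0.47 in Pb/2 minus Canton S (0.0101), -0.59 in A2663/v minus BL15598 (0.00158) and -0.47 in A2663/v minus Canton S (0.0112). Lower calls in all 4 of these comparisons were made for 5.31% of genes. Without the 4 mutant arrays of high gut signal, mei-P26 in A2663/v minus Canton S was -0.51 (adjusted p = 0.0953), and it remained under 0.05 in the other 3. The mutants differed by -0.0067 (95% interval -0.27 to 0.25), and BL15598 from Canton S by 0.13 (-0.13 to 0.39).

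Nos (nanos) and Pum (pumilio) bind mRNA together, Pum by sequence, and recruit the CCR4-NOT deadenylase; nos RNA is also laid down in the egg for the posterior of the embryo. The log2 signal of nos was 9.12, 9.35 and 9.47 in Pb/2 and 9.17, 9.38 and 9.25 in A2663/v. It was 9.76, 9.81 and 9.86 in BL15598 and 9.55, 9.66 and 9.26 in Canton S. BL15598 lay above all other arrays, and the mutants overlapped Canton S through its replicate 3.

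Across both mutants nos was lower, at -0.36 ± 0.08 on the log2 scale (SE; limma adjusted p = 0.0023), 1.29-fold. The fall was called against BL15598, at -0.50 in Pb/2 (adjusted p = 0.00325) and -0.55 in A2663/v (0.00182), and not against Canton S, at -0.18 in Pb/2 (0.245) and -0.23 in A2663/v (0.16). Canton S replicate 3 bears on this: without it they were -0.30 in Pb/2 (0.044) and -0.34 in A2663/v (0.0275), both called. In each mutant that was the 1 alternative of 24 with a call against Canton S. Without single arrays the change ran from -0.30 to -0.09 in Pb/2 and from -0.34 to -0.14 in A2663/v. The wild types themselves differed by 0.32 ± 0.11, BL15598 minus Canton S, with an adjusted p of 0.0542. Without the 4 mutant arrays of high gut signal the average fall of nos was -0.23 (adjusted p = 0.161), and its changes against BL15598 were -0.35 in Pb/2 (0.15) and -0.44 in A2663/v (0.0849), none of them called.

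The gene brat (brain tumor) encodes another TRIM-NHL protein, which joins Nos and Pum on hunchback mRNA in the embryo and works with Pum against stem cell mRNAs in the cystoblast. Its log2 signal was 10.66, 10.64 and 10.37 in Pb/2 and 10.56, 10.57 and 10.55 in A2663/v. It was 11.01, 11.05 and 11.15 in BL15598 and 10.73, 10.83 and 10.61 in Canton S. As with nos, BL15598 stood above all other arrays, and Canton S overlapped Pb/2 through its replicate 3.

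In the mutants brat was lower, at -0.34 ± 0.06 on the log2 scale (SE; limma adjusted p = 0.000477), 1.26-fold. Against BL15598 the changes were -0.51 in Pb/2 (adjusted p = 0.000344) and -0.51 in A2663/v (0.00036). Against Canton S they were -0.17 in Pb/2 (0.157, 95% interval -0.35 to 0.02) and -0.16 in A2663/v (0.178, -0.34 to 0.02). The difference between the wild types was itself called, 0.35 ± 0.08 for BL15598 minus Canton S (adjusted p = 0.00839), so the size of the fall depends on which wild type it is set against. The mutants differed by -0.0045 (95% interval -0.19 to 0.18).

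Markers of vitellogenic egg chambers, all but Fcp3C, had their highest mean in BL15598 too. The list held the yolk and vitelline membrane genes Yp1, Yp2, Yp3, Vm26Aa, Vm34Ca and psd, with wbl, dec-1 and Fcp3C. Fcp3C was not tested and averaged 4.27 in BL15598, its lowest mean. The 9 measured summed to 4228 to 12996 in Pb/2, 1997 to 5892 in A2663/v, 12884 to 15204 in BL15598 and 5463 to 7084 in Canton S. On single arrays 7 of them lay over the floor in Pb/2, 4 to 5 in A2663/v, 8 in BL15598 and 7 to 8 in Canton S. 1 Pb/2 array reached into the range of BL15598, and 2 of the 3 Pb/2 arrays lay above all Canton S arrays in this sum. Yp1 and Yp2, the brightest of these genes on average, weigh most in it. Of the 8 of them tested, 6 were lower in the mutants and none higher by limma, with 0 higher at an unadjusted p under 0.05. The part of egg chamber stage in the values of nos and brat was not tested.

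The gene pum had 2 probe sets, and they disagreed. The brighter one, which represents the gene in the test, read 10.43, 10.61 and 10.51 in Pb/2 and 10.79, 10.92 and 10.84 in A2663/v. In the wild types it read 9.81, 9.58 and 10.15 in BL15598 and 10.11, 10.10 and 10.24 in Canton S. All 6 mutant arrays lay over all 6 wild-type arrays, as they did for 5.35% of all tested genes.

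By this probe set pum was higher in the mutants by 0.68 ± 0.08 on the log2 scale (SE; limma adjusted p = 1.96e-05), 1.60-fold. It was called higher in each of the 4 comparisons, as were 4.14% of genes, at 1.00 in A2663/v minus BL15598 (adjusted p = 1.95e-05), 0.69 in A2663/v minus Canton S (0.000575), 0.67 in Pb/2 minus BL15598 (0.000515) and 0.36 in Pb/2 minus Canton S (0.0305). The last call was lost in 9 of 25 alternatives, among them genes not filtered (adjusted p = 0.0701) and leaving out Canton S replicate 1 or 2 or Pb/2 replicate 2 or 3 (0.0623 to 0.0996). Pb/2 minus A2663/v was -0.33 (adjusted p = 0.101) and BL15598 minus Canton S -0.30 (0.0686).

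**Figure D4:**
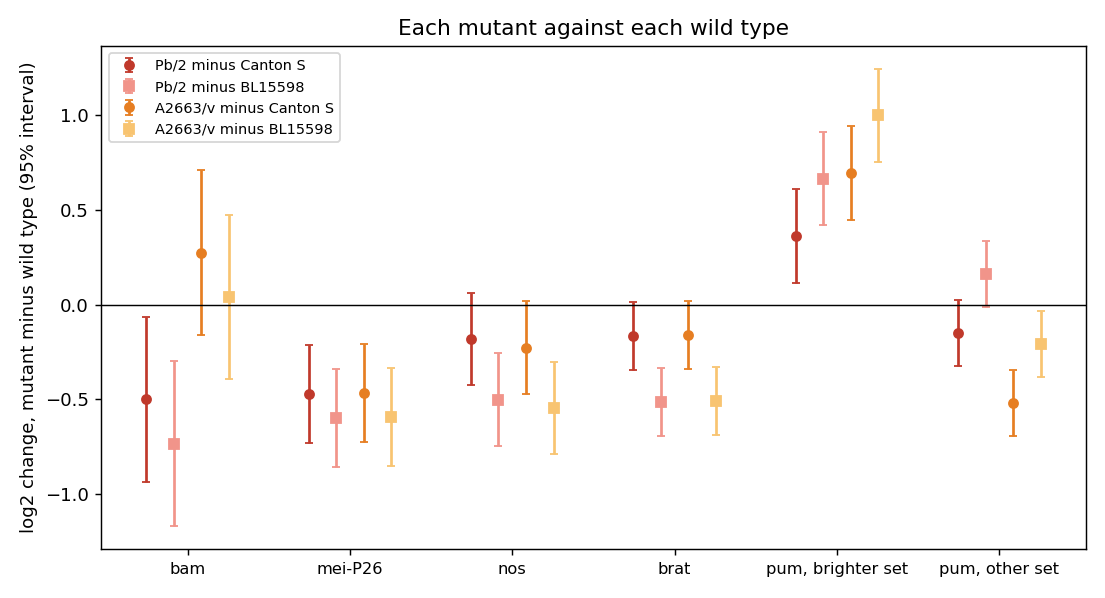
Log2 change of each mutant against each wild type (points, with 95% intervals from limma) for bam, mei-P26, nos, brat and both pum probe sets. For mei-P26 all 4 intervals lie under 0 and for the brighter pum set all lie over it, while those of nos and brat lie under 0 against BL15598 and reach 0 against Canton S. The gene tut is not drawn.

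The other pum probe set read 9.22, 9.20 and 9.30 in Pb/2 and 8.85, 8.94 and 8.83 in A2663/v. It read 9.05, 9.00 and 9.20 in BL15598 and 9.36, 9.46 and 9.36 in Canton S. A2663/v was lowest here, where it was highest by the brighter set. In a fit of 6531 probe sets taken singly, this set was lower in the mutants, at -0.18 ± 0.06 (SE; limma adjusted p = 0.021), and lower in A2663/v than in Canton S, at -0.52 (adjusted p = 0.00038). It was higher in Pb/2 than in A2663/v by 0.37 (0.012). In Pb/2 minus BL15598 it was at 0.16 (0.131), the same sign as the brighter set. The mean of both sets was called higher against BL15598, at 0.39 in A2663/v (0.00404) and 0.41 in Pb/2 (0.00302), but not against Canton S, at 0.09 in A2663/v (0.51) and 0.11 in Pb/2 (0.401).

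The disagreement can be measured within each array as the brighter minus the other set. This difference was 1.20, 1.41 and 1.20 in Pb/2 and 1.94, 1.97 and 2.01 in A2663/v. It was 0.76, 0.58 and 0.95 in BL15598 and 0.76, 0.64 and 0.89 in Canton S. The mean was 1.62 ± 0.39 in the mutants and 0.76 ± 0.14 in the wild types (SD, n = 6 each), with no overlap. This measure was chosen after the disagreement was seen and has no test. It was not taken for other genes with more than 1 probe set, so whether pum is unusual in it is not known. The difference was 0.77 ± 0.18 in BL15598 and 0.76 ± 0.12 in Canton S (SD, n = 3), while every A2663/v array exceeded every Pb/2 array.

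**Figure D5:**
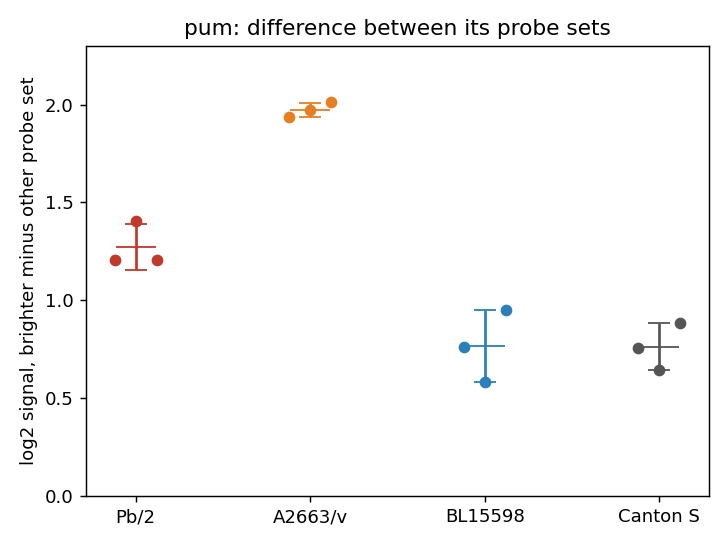
Difference in log2 signal between the pum probe sets within each array (points), with mean and SD of 3 arrays, by genotype. A2663/v stands highest at 1.97, then Pb/2 at 1.27, with both wild types at 0.76 to 0.77.

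A measure of RNA quality, the gap in log2 signal between the 3′ and 5′ probe sets of a control gene, had higher means in the mutants. For GAPDH this gap was 2.42 ± 0.10 in the mutants and 2.01 ± 0.24 in the wild types, for eIF-4a 3.01 ± 0.22 in the mutants and 2.31 ± 0.38 in the wild types, and for actin 1.20 ± 0.14 in the mutants and 1.04 ± 0.22 in the wild types (SD, n = 6 each). By genotype, Pb/2 and A2663/v had 2.41 and 2.43 for GAPDH, 3.15 and 2.86 for eIF-4a and 1.30 and 1.10 for actin. BL15598 and Canton S had 1.86 and 2.16 for GAPDH, 2.18 and 2.44 for eIF-4a and 1.07 and 0.997 for actin. Where in the pum transcripts each probe set lies was not analysed here, and the part of RNA quality in the difference was not tested.

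Other genes of the same pathways were counted without the members, and no list had all of its tested genes called in the same direction. Of 9 further translation and self-renewal factors tested, 4 were higher in the mutants and 3 lower, and their median log2 change was 0.05 beside -0.03 over all genes. The gene piwi, of the piRNA pathway, was higher by 0.37 ± 0.08 (SE; limma adjusted p = 0.00146) and vret, a Tudor protein gene of that pathway, by 0.27 ± 0.05 (0.000882). By pair, piwi was not called in A2663/v minus Canton S (0.0876), nor vret in Pb/2 minus BL15598 (0.0526). The chromatin protein gene stwl, needed to keep germline stem cells, was called higher too, but lay over the floor on 7 of 12 arrays, with means of 5.70 in Pb/2, 5.54 in A2663/v, 5.03 in BL15598 and 4.74 in Canton S, so no size is given for its change. The gene loqs, whose protein binds double-stranded RNA with Dicer-1, was lower, at -0.39 ± 0.08 (0.00176). Against Canton S loqs was not called, at -0.08 in Pb/2 (0.66) and -0.16 in A2663/v (0.337).

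Of 8 CCR4-NOT deadenylase genes, 2 were higher and 2 lower (median -0.04). Rcd-1 was higher by 0.48 ± 0.06 (limma adjusted p = 2.33e-05) and Cnot4 by 0.17 ± 0.06 (0.0475). Cnot4 was not called against Canton S in Pb/2 (0.617) or in A2663/v (0.753). The catalytic subunit gene Pop2 was lower, at -0.25 ± 0.05 (0.00175), a value that joined 9.83 in Pb/2 and 10.74 in A2663/v with 10.48 in BL15598 and 10.59 in Canton S. Not10 was lower, at -0.22 ± 0.08 (0.0433), but against Canton S it was at 0.0062 in Pb/2 (0.977) and -0.11 in A2663/v (0.542). The deadenylase gene twin did not pass (-0.12 ± 0.07, 0.178).

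Of 11 genes of cyst differentiation, 2 were higher and 2 lower (median -0.07). Rbp9, which encodes an ELAV-family RNA-binding protein, was higher by 1.71 ± 0.07 (SE; limma adjusted p = 8.36e-10), the one change over 2-fold in these lists. Rbfox1, a splicing and translation factor gene, was higher by 0.37 ± 0.06 (0.000378), though not called in Pb/2 minus Canton S (0.186). The ovarian tumour gene otu was lower, at -0.59 ± 0.05 (9.17e-07) and was called lower in each mutant against each wild type. Its activator ovo was lower on average, at -0.17 ± 0.06 (0.0367). Both genes lie on the X chromosome, as mei-P26 does, and the part of the mutants' shared X was not tested. Against BL15598 ovo was at -0.26 in Pb/2 (0.0262) and -0.48 in A2663/v (0.000706), and against Canton S at 0.14 in Pb/2 (0.239) and -0.07 in A2663/v (0.575). Sxl, which acts with Bam and Mei-P26, was at -0.07 ± 0.06 (0.326).

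Of the 2 other TRIM-NHL genes, wech was lower (-0.22 ± 0.07, limma adjusted p = 0.0218) and tn, best known for its role in muscle, was at -0.0042 (0.99). Among the pairs of a mutant and a wild type, wech was called in A2663/v minus BL15598 alone (-0.28, 0.035). The Brat partner and target list had 2 of 4 higher and 2 lower (median 0.15). Mad, the BMP-responsive Smad and a Brat target mRNA, was higher by 0.52 ± 0.05 (4.83e-06). The gene hb was called higher as well, but lay over the floor on 10 of 12 arrays, with means of 5.78 in Pb/2, 5.55 in A2663/v, 5.52 in BL15598 and 4.93 in Canton S, and was not called against BL15598 in Pb/2 (0.355) or in A2663/v (0.936). The cap-binding partner eIF4EHP was lower, at -0.53 ± 0.09 (0.000456) and CycB at -0.14 ± 0.03 (0.00241). CycB was not called against Canton S in Pb/2 (0.234) or in A2663/v (0.0883).

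In the BMP pathway, which silences bam, 5 of 10 genes were higher and 1 lower (median 0.21), beside 20.3% higher and 26.6% lower of all genes and 5 higher and 1 lower of the 9 germline markers. Against BL15598 there were 4 higher in Pb/2 and 7 in A2663/v, and against Canton S 2 in Pb/2 and 3 in A2663/v. Besides Mad, the higher ones included the receptor gene sax (0.42 ± 0.09, limma adjusted p = 0.00192) and Dad, an inhibitory Smad and response gene (0.38 ± 0.12, 0.0177). The lower one was the ligand gene dpp (-0.46 ± 0.12, 0.00766). Mad was called higher in each mutant against each wild type, and Dad was not called in Pb/2 against either wild type (0.403 against BL15598 and 0.179 against Canton S). Against Canton S, sax was not called in Pb/2 (0.0952) or in A2663/v (0.0562). The same held for dpp (0.485 in Pb/2 and 0.16 in A2663/v). Of 7 fusome genes, 2 were higher, egl (0.33 ± 0.07, 0.00181) and beta-Spec (0.29 ± 0.10, 0.0234), and 0 lower by limma, or 1 at an unadjusted p under 0.05 (hts, -0.18). Neither egl nor beta-Spec was called against Canton S in either mutant, and beta-Spec was at -0.27 in Pb/2 (0.146) and 0.27 in A2663/v (0.166) there. The fusome genes that were called against Canton S were lower, 3 in Pb/2 (hts, shot and Dhc64C) and 1 in A2663/v (shot).

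Genes most like the other members over the 12 arrays, by the same measure of likeness, were THADA (r = 0.938), CG7800 (0.907) and Mad1 (0.868) for bam, and Phb1 (0.920), Tom40 (0.917) and CG33116 (0.912) for mei-P26. For nos they were CG4287 (0.963), MFS18 (0.962) and MAN1 (0.960), for brat CG4768 (0.960), slif (0.951) and CG17271 (0.943), and for pum CG13362 (0.965), hrg (0.963) and CG6701 (0.963). No member was among the 3 genes most like another member.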

How the data were processed

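The deposited values are log2 signals per probe set made by the authors with Partek 6.5 and GCRMA, per the submitters' processing notes; the sources used here give neither their settings nor a genome build. RNA was amplified and labelled with NuGEN Ovation kits, per the labels' protocols. Values ran from 1.60 to 15.64, and 61.9% lay under log2 5, the floor used here. Such values, compressed toward a common background, carry no order below it, and a fold against one is a bound. The number of arrays, 3 a genotype, limits the precision. Separations of the 3 arrays of a genotype, as given for bam, tut, nos and brat, were not counted over all genes and are descriptions. The share of values over the floor was 37.4% to 38.6% per array.

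Of 18952 probe sets, 13647 named 1 gene, 402 several and 4720 none that the platform table lists, beside 183 control sets. Current symbols came from a RefSeq table (Release 6 plus ISO1 MT). Each gene was its probe set with the highest mean, and 6163 genes over log2 5 on at least 3 arrays were tested. limma 3.58.1 in R 4.3.3 fitted 4 genotype means to all 12 arrays, with a variance trend and Benjamini-Hochberg adjustment. In simulated data for mutants minus wild types, 200 of 6163 genes were changed and the rest had no difference between genotypes. Of genes changed 1.5-fold 78% were called, of those changed 1.25-fold 56%, and of unchanged ones 0.117%. In the deposited data 46.9% of genes were called, a much larger share, so these rates need not hold there. Named genes were all members, up to 4 called genes of each list with the largest changes, the 3 genes most like each member, and neighbours of tut; genes named beyond these (bab1, bab2, zfh1, the markers of other tissues, shot, Dhc64C, twin, Sxl, tn, hts, MED24, Dhps, CG8012, eIF4E3) were chosen after their values were seen. Members and lists were chosen with earlier results of these data known. The replicates are called biological in the labels.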

Additional observations from a re-analysis of the deposited data

Results flagged for a closer look

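Among the 7 genes, 3 values differed between the mutants. The bam log2 change was -0.77 for Pb/2 minus A2663/v (limma adjusted p = 0.0317), so its fall against BL15598 in one mutant was not shared by the other. The tut difference was 1.98 in the same comparison (adjusted p = 2.09e-05). The other pum probe set differed by 0.37 (adjusted p = 0.012), where the brighter set had -0.33 (0.101).

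Between the wild types, BL15598 minus Canton S, brat differed by 0.35 (limma adjusted p = 0.00839) and the other pum probe set by -0.31 (adjusted p = 0.0139), in a comparison that called 25.4% of all genes. Each mutant's change against one wild type therefore differed from its change against the other by that amount.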

How the results depend on the processing

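The processing was varied in the filter, the floor, the scaling (median centring or cyclic loess), the handling of genes with more than 1 probe set, the variance model, the replicate block and the arrays fitted. The other pum probe set in place of the brighter one was chosen after seeing the data. The count of 4 members called between mutants and wild types was 3 to 4 under all of these. mei-P26 (-0.63 to -0.47) and brat (-0.43 to -0.29) kept their calls in that comparison under each one, and nos lost its call without the arrays of high gut signal. With the other probe set pum kept its sign in Pb/2 minus BL15598 (0.159, adjusted p = 0.13) and was reversed elsewhere against the wild types, at -0.18 between mutants and wild types, -0.21 in A2663/v minus BL15598, -0.52 in A2663/v minus Canton S, -0.15 in Pb/2 minus Canton S and 0.37 in Pb/2 minus A2663/v, where the mean of both sets gave 0.018.

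In A2663/v minus Canton S, 1 member was called in place of 2 with probe sets averaged or without the gut arrays, and 2 to 3 without single arrays. Without the gut arrays 3 in place of 5 were called in Pb/2 minus BL15598 and 3 in place of 4 in A2663/v minus BL15598. In Pb/2 minus Canton S, 1 in place of 2 was called with genes not filtered, probe sets averaged, no variance trend, no gut arrays or the other pum set, and 1 to 3 without single arrays. In BL15598 minus Canton S, 2 in place of 1 were called with median centring, cyclic loess, probe sets averaged, robust variance or the other pum set, and 1 to 2 without single arrays. In Pb/2 minus A2663/v, limma called 0 in place of 1 with genes not filtered or no variance trend (2 at an unadjusted p under 0.05 in each) or without the gut arrays (0 unadjusted), 2 in a fit of only those arrays or with the other pum set, and 0 to 2 without single arrays.

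Small uncalled values changed sign: bam in A2663/v minus BL15598 was -0.036 with cyclic loess and -0.14 to 0.14 without single arrays. In Pb/2 minus A2663/v, mei-P26 was 0.038 with median centring, 0.032 with cyclic loess and -0.13 to 0.068 without single arrays, brat was 0.041, 0.030 and -0.055 to 0.090, and nos was -0.034 to 0.14 without single arrays. In BL15598 minus Canton S, mei-P26 was -0.0026 to 0.22 without single arrays. With values raised to the floor tut was 1.28 between mutants and wild types. Fits of only the arrays compared give no value for mutants minus wild types, which use all arrays. In 6 alternatives the difference of nos between the wild types passed (adjusted p from 0.0179), and in a fit of the 2 mutants alone the -0.33 of pum between them did (0.0286). The causes were not tested.

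Replicate numbers did not pair the arrays: of 18 same-number pairs 5 had deviations correlated over 0.1 (from -0.53 to 0.37). With the replicate block 4 members were called between mutants and wild types, and no call of a member changed in any comparison.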

Other observations

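The place of A2663/v between BL15598 and the other genotypes, seen in tut, was counted over all genes after its values were seen. Of 190 genes at least 2-fold lower in BL15598 than in Canton S (limma adjusted p under 0.05), 63 had a mean in A2663/v above BL15598 and below both Canton S and Pb/2, a share of 33.2%. On chromosome arm 3L, which holds tut, it was 12 of 28 (42.9%), and on 3R, which holds su(Hw), 17 of 39 (43.6%). On 2L it was 12 of 46 (26.1%), on 2R 11 of 43 (25.6%) and on X 9 of 30 (30%). The 190 were already chosen as low in BL15598, and tut is itself among the 63 and among the 12 on 3L. The share expected without any such pattern was not worked out, so 33.2% cannot be called high or low. These counts are a description, and the differences between arms were not tested.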
